A study of Mus musculus with 20 samples.

Results

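The lincRNAs (long intergenic non-coding RNAs) that the brains of SMA and control mice expressed at an appreciable level were followed from total cytoplasmic RNA into polysomes. Members were chosen by their type, their level and, for those left out, their name. A member is a gene that the deposited table types as lincRNA, with a mean of 2 FPKM or more over the 20 libraries and a value above 0 in each of them. FPKM correct the fragments of a gene for its exon length and for library size, so levels can be compared between genes. Gas5, Malat1, Neat1, Meg3, Miat and the Snhg genes were left out by name. This gave 208 members of 45700 genes in the table, where 3397 genes are typed as lincRNA and 223 of those reach the mean. Of these 223, 8 were listed at 0 in at least 1 library and 7 were left out by name. The members nearest the limit had means of 2.01, 2.04 and 2.06 FPKM, and the nearest lincRNAs outside had 1.9785, 1.979 and 1.998 FPKM. Under the same limits the table holds 11882 protein-coding genes, which served as the comparison.

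The SMA mice were "Taiwanese" mice (Smn-/-; SMN2tg/0), labelled as homozygous for the disrupted mouse Smn gene and carrying the human SMN2 transgene. The controls were heterozygous littermates (Smn-/+; SMN2tg/0), so both genotypes carry SMN2, and all mice were congenic FVB. Brains were taken at postnatal day 5, the early-symptomatic stage, from 2 mice per genotype, and at day 7, the late-symptomatic stage, from 3 mice per genotype. Brain lysates were run on sucrose gradients, whose fractions were pooled as total cytoplasmic RNA (RNA-seq), or the polysomal fractions alone as polysomal RNA (POL-seq). The groups are therefore whole-brain lysates, in which fewer cells of a type and less RNA per cell cannot be told apart.

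A lincRNA is a transcript from between protein-coding genes for which no protein is annotated. Ribosomes assemble into polysomes on RNAs that are being translated, so most messenger RNA sediments in the polysomal fractions, whereas RNAs that are not translated, are nuclear or are processed further are scarcer there. Some annotated lincRNAs do bind ribosomes, some hold short reading frames, and others are the precursor transcripts from which microRNAs or small nucleolar RNAs are cut.

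The 208 members had mean levels from 2.01 to 640 FPKM with a median of 5.62 FPKM. Of them, 76 lay under 4 FPKM and 10 at 50 FPKM or more, and together they took 0.347% to 0.480% of the FPKM of total libraries and 0.463% to 0.526% of that of polysomal libraries. The 20 most abundant genes took 30.9% to 43.7% of the FPKM in total libraries and 12.4% to 20.1% in polysomal libraries, so the fractions differ in composition. Marker genes of astrocytes, oligodendrocytes, endothelial cells, microglia, red blood cells and choroid plexus were above 0 in every library, as were 3 of 4 neuron markers. The sums of red blood cell markers were 1022 to 4313 FPKM and those of choroid plexus markers 376 to 1113 FPKM, while those of liver were 0.18 to 1.77 FPKM. The neuron markers summed to 926 to 1140 FPKM in the day 5 control polysomal libraries, against 2043 to 2050 FPKM in the SMA ones. In the control ones 1 of the 4 markers was listed at 0, so these sums do not compare neurons between genotypes. In both day 5 control polysomal libraries, 66 tested genes were listed at 0 that were above 0 in the other 18 libraries. Of these, 64 lie on chromosome 8, where 10 members also lie. No member could be among the 66, since the rule asks for a value above 0 in every library. Smn1, the disrupted mouse gene, gave 13.56, 14.09 and 16.7 FPKM in controls against 11.94, 12.65 and 17.49 FPKM in SMA total RNA at day 7. The genotypes overlapped, and a value over the whole gene does not show which allele is read, so it does not check the genotype labels.

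Later annotation shows what the lincRNA type covers. In the Gencode M21 annotation 199 members were found by identifier, 171 still as lincRNA, 12 as antisense and 6 as protein-coding. RefSeq types 13 members as protein-coding, and 16 members are protein-coding in one annotation or the other. Exons of 67 members overlap exons of a protein-coding gene, in 62 of them only on the opposite strand, while 132 have no such overlap. The programs were run at their defaults, which treat libraries as unstranded, so reads of an overlapping pair may not have been told apart. Members that share a locus are also not independent of each other. Ftx and Jpx overlap by 4790 bases on opposite strands, and Gm26809 and RP23-148L8.3 by 1451 bases.

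At day 7 the median lincRNA of the set was lower in polysomal than in total RNA. With limma and Benjamini-Hochberg adjustment over 15247 tested genes, 91 of the 208 members (43.8%) were lower in polysomal RNA and 4 (1.92%) were higher. Over all tested genes 12% were lower and 18% higher, and among protein-coding genes under the same limits 10.6% were lower and 22.3% higher. The median member differed by -0.24 on the log2(FPKM + 0.1) scale, with quartiles at -0.63 and 0.00. The median was 0.08 for the protein-coding genes and 0.05 for all tested genes. A difference below -1 was found for 29 members (13.9%) and for 0.951% of the protein-coding genes. In 52 members all 6 polysomal libraries of day 7 lay below all 6 total libraries, against 6.88% of all tested genes. Only 1 member had all polysomal libraries above all total libraries, against 7.06% of tested genes. The summed level of the members was also lower, at 3101 to 3326 FPKM in polysomal and 3971 to 4245 FPKM in total libraries of day 7. As a share of all FPKM of the library it was higher, at 0.489% to 0.526% against 0.432% to 0.480%, without overlap.

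The members lay below protein-coding genes in each of the 4 bands of expression level compared. Between 2 and 4 FPKM the 76 members had a median of -0.26 and the protein-coding genes of that level 0.00. Between 4 and 8 FPKM the medians were -0.13 for 54 members and 0.02 for protein-coding genes. Between 8 and 16 FPKM they were -0.28 for 44 members and 0.06 for protein-coding genes. At 16 FPKM and more they were -0.20 for 34 members and 0.13 for protein-coding genes. The member medians did not order by level, whereas those of the protein-coding genes increased from band to band. Below the 10th percentile of the protein-coding genes of their band lay 35, 22, 22 and 17 members, from the lowest band to the highest. Across members, which are not independent replicates, the difference had a Spearman correlation of 0.058 with the mean level.

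**Figure D1:**
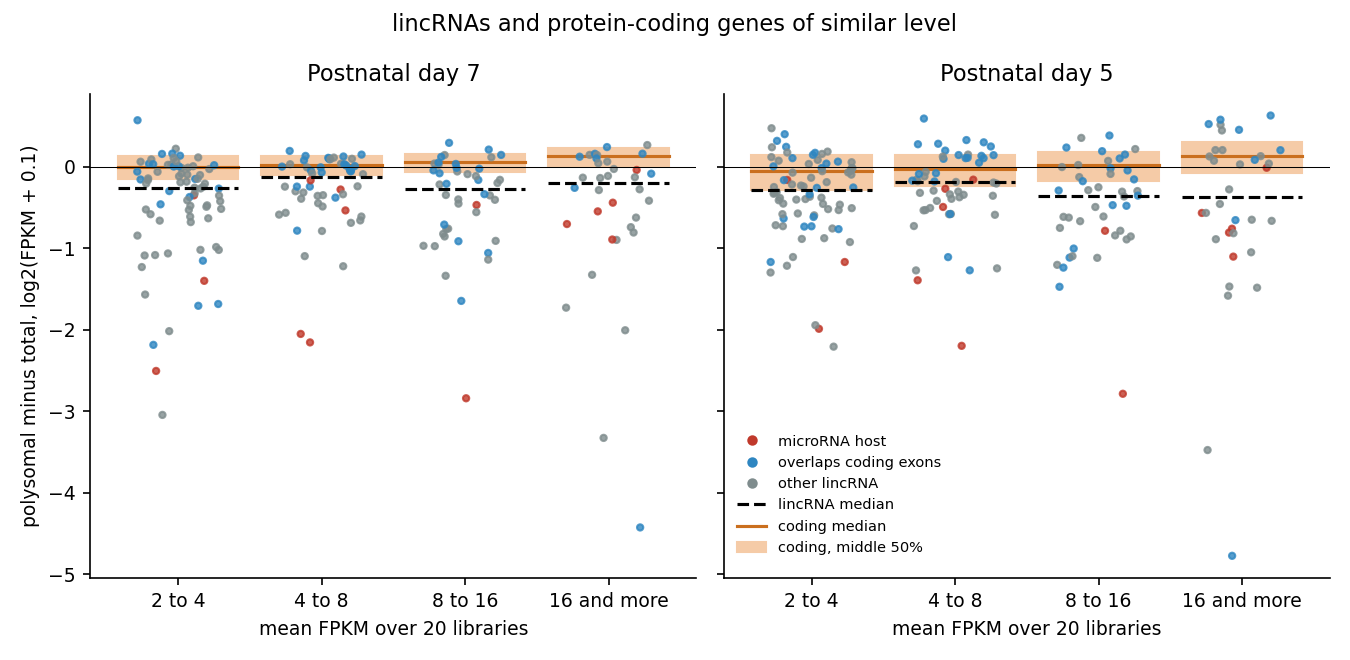
Polysomal minus total difference on the log2(FPKM + 0.1) scale for each of the 208 lincRNAs, by mean FPKM, at day 7 and day 5. Dashed lines are the lincRNA medians, solid lines and boxes the median and the quartiles of the protein-coding genes of the same level. In every band the dashed line lies below the solid line, at day 7 by -0.26 against 0.00 in the lowest band and -0.20 against 0.13 in the highest.

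The same was seen mouse by mouse. The polysomal minus total difference was taken within each replicate number, here called a mouse although the labels give only the shared number, and the median of the protein-coding genes of the same level band was subtracted. The median member then lay below 0 in all 10 mice, from -0.40 in control mouse 1 of day 5 to -0.15 in SMA mouse 1 of day 5. At day 7 the 6 mice ranged from -0.33 in control mouse 1 to -0.23 in control mouse 3, with the 3 SMA mice in between at -0.28, -0.30 and -0.28. Of the members, 77 were below 0 in all 10 mice and 6 were above 0 in all 10.

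**Figure D2:**
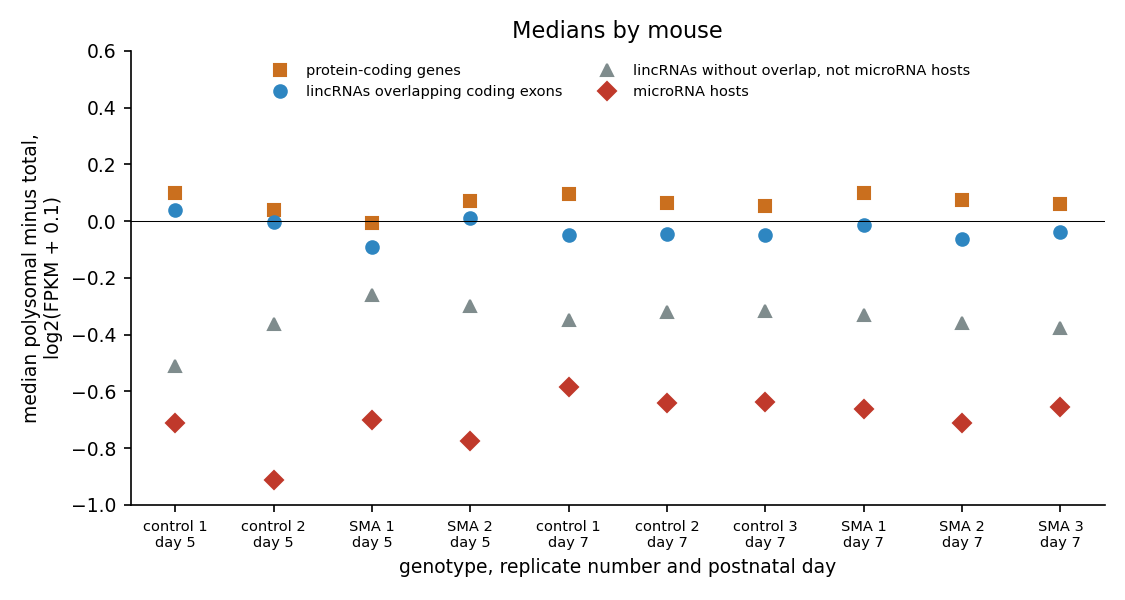
Median polysomal minus total difference on the log2(FPKM + 0.1) scale in each of the 10 mice, for protein-coding genes and 3 groups of lincRNAs. MicroRNA hosts lie lowest in every mouse, between -0.91 and -0.58, and lincRNAs that overlap coding exons lie nearest the protein-coding genes.

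The lowest polysomal minus total difference belonged to Gm26870, at -4.42 (SE 0.29, limma with Benjamini-Hochberg adjusted p = 7.75e-06). Its total libraries of day 7 held 152.91, 119 and 170.06 FPKM in controls against 308.68, 325.18 and 146.98 FPKM in SMA mice, and its polysomal libraries 6.71, 6.93 and 8.36 against 16.92, 11.77 and 5.6 FPKM. The fractions did not overlap, and the lowest total value was several times the highest polysomal value. Gm26870 lies at chr9:3000282-3038313 of GRCm38 on the minus strand. There 54.6% of its exon length overlaps exons of coding genes with serial Gm names on the opposite strand, so its level is uncertain.

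Gm28872 followed, at -3.33 (SE 0.25, limma adjusted p = 2.24e-05). It is a single exon of 158 bases at chr4:132270056-132270213 on the plus strand. On the other strand, 134 of those bases (84.8%) are Rnu11, the gene of the U11 small nuclear RNA, a part of the minor spliceosome. SMN is known for assembling the protein ring on such small nuclear RNAs. Rnu11 was also lower in polysomal than in total RNA at day 7, by -2.17 (SE 0.36, limma adjusted p = 0.00209). At day 5 it stood at -2.02 (limma adjusted p = 0.226). Gm28872 had 349.82, 342.03 and 448.97 FPKM in controls against 343.79, 399.27 and 200.21 FPKM in SMA total RNA of day 7, and 34.05, 22.47 and 48.73 against 22.37, 40.41 and 42.17 FPKM in polysomal RNA. Rnu11 itself had 287.1, 224.97 and 206.51 FPKM in controls against 168.19, 136.98 and 104.1 FPKM in SMA total RNA, lower in all 3 SMA mice (log2 difference -0.82, SE 0.22, limma unadjusted p = 0.0119, adjusted p = 0.365). In polysomal RNA Rnu11 had 90.5, 50.38 and 52.98 FPKM in controls against 55.73, 10.98 and 25.21 FPKM in SMA mice (-1.32, unadjusted p = 0.0906). At day 5 the genotypes overlapped, with 293.2 and 234.34 FPKM of Rnu11 in total RNA of controls and 332.23 and 22.61 FPKM in that of SMA brains. Gm28872 did not pass that test in total RNA (-0.32, unadjusted p = 0.315) nor in polysomal RNA (0.01, unadjusted p = 0.979). Rnu11 was singled out after its values were seen, reads of the 2 strands may not have been told apart, and fragments of so short a transcript are counted with little certainty.

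Of the other members far below total, BC051077 stood at -3.05 (SE 0.11, adjusted p = 2.20e-07). It gave 6.21, 5.61 and 5.8 FPKM in controls against 4.53, 4.39 and 4.19 FPKM in SMA total RNA of day 7, against 0.74, 0.51 and 0.41 and 0.57, 0.5 and 0.47 FPKM in polysomal RNA. Gm4419, on the strand opposite Ywhaq, stood at -2.19 and Gm26917 at -2.01, both lower in polysomal RNA by limma (adjusted p = 4.34e-06 and 4.98e-04). Gm26917 is a single exon of 3329 bases with a GC content of 69.1%, and Gm26953 stood at -1.33 (adjusted p = 0.00465).

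Members of like total level differed in polysomal RNA. 1700020I14Rik, among the most abundant members, was lower in polysomal RNA by -0.90 (SE 0.05, limma adjusted p = 5.19e-06). Its total libraries of day 7 held 211.34, 204.41 and 193.71 FPKM in controls against 199.31, 210.53 and 217.06 FPKM in SMA mice. Its polysomal libraries held 101.46, 120.09 and 104.35 FPKM in controls against 109.95, 105 and 123.16 FPKM in SMA mice. The fractions were well apart and the genotypes overlapped. Pantr1, a lincRNA 925 bases from the neural transcription factor gene Pou3f3, had a similar total level of 238.26, 201.66 and 224.76 FPKM in controls against 192.48, 215.79 and 266.59 FPKM in SMA mice. Its polysomal libraries held 207.83, 241.81 and 218.97 FPKM in controls against 187.2, 156.28 and 207.34 FPKM in SMA mice. For Pantr1 the fractions overlapped (-0.14, adjusted p = 0.315).

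Among the 10 members of highest mean level, 3 were lower in polysomal RNA (Gm26870, 1700020I14Rik and Gm28872) and 2 were higher (6330403K07Rik and Gm26825). Of all tested genes 12% were lower and 18% higher, so the 2 higher members are near the share of all genes. The most abundant member, Gm26723, had a mean of 640 FPKM and a polysomal minus total difference of 0.16 (adjusted p = 0.0543). It is among the members that overlap coding exons on the opposite strand, so its level is uncertain. With quantile normalization Gm26723 stood at 0.52 and passed (adjusted p = 6.52e-04). Pantr1, Gm17275, 1700086L19Rik and Gm17750, also among the 10, stood between -0.14 and 0.16 and did not pass.

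The 4 members higher in polysomal RNA at day 7 differed by small amounts. Gm26673 was higher by 0.29 (SE 0.05, adjusted p = 0.00279). It had 8.31, 9.06 and 8.56 FPKM in controls against 8.31, 8.11 and 8.09 FPKM in SMA total RNA, and 11.55, 9.44 and 10.01 against 9.98, 10.22 and 10.73 FPKM in polysomal RNA. It is the member whose polysomal libraries all lay above its total libraries, and it overlaps Kcna6, a potassium channel gene, on the opposite strand. 6330403K07Rik was higher by 0.26 (adjusted p = 0.0261) at a mean of 166 FPKM, and Gencode M21 and RefSeq both type it as protein-coding. Gm26722, opposite the chromatin gene Rbbp4, was higher by 0.24 (adjusted p = 0.0220), and Gm26825 by 0.14 (adjusted p = 0.0488). Hist2h2bb had the largest difference, 0.57, but did not pass the test (SE 0.28, adjusted p = 0.161), except with the replicate number as a block (adjusted p = 0.0333). It shares its symbol and part of its exons with a histone gene. The other members among the 8 highest, Gm12319 at 0.22, Gm26765 at 0.21, 2310031A07Rik at 0.19 and Gm26888 at 0.16, did not pass (adjusted p from 0.0562 to 0.463). 2310031A07Rik passed with the stricter filter, with quantile normalization and without SMA mouse 2 (0.19, 0.22 and 0.26). Without control mouse 2, control mouse 3, SMA mouse 1 or SMA mouse 2 the members higher numbered 2. Gm26673 passed without any 1 mouse. 6330403K07Rik did not pass without control mouse 1 or 3 or SMA mouse 1 or 2 (0.25 to 0.27), nor Gm26722 without control mouse 2 or SMA mouse 2 or 3 (0.20 to 0.25) or with quantile normalization (0.18). Gm26825 did not pass without control mouse 2 or 3 or SMA mouse 1 or 2 (0.12 to 0.15), nor under 5 other settings (0.11 to 0.14).

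**Figure D3:**
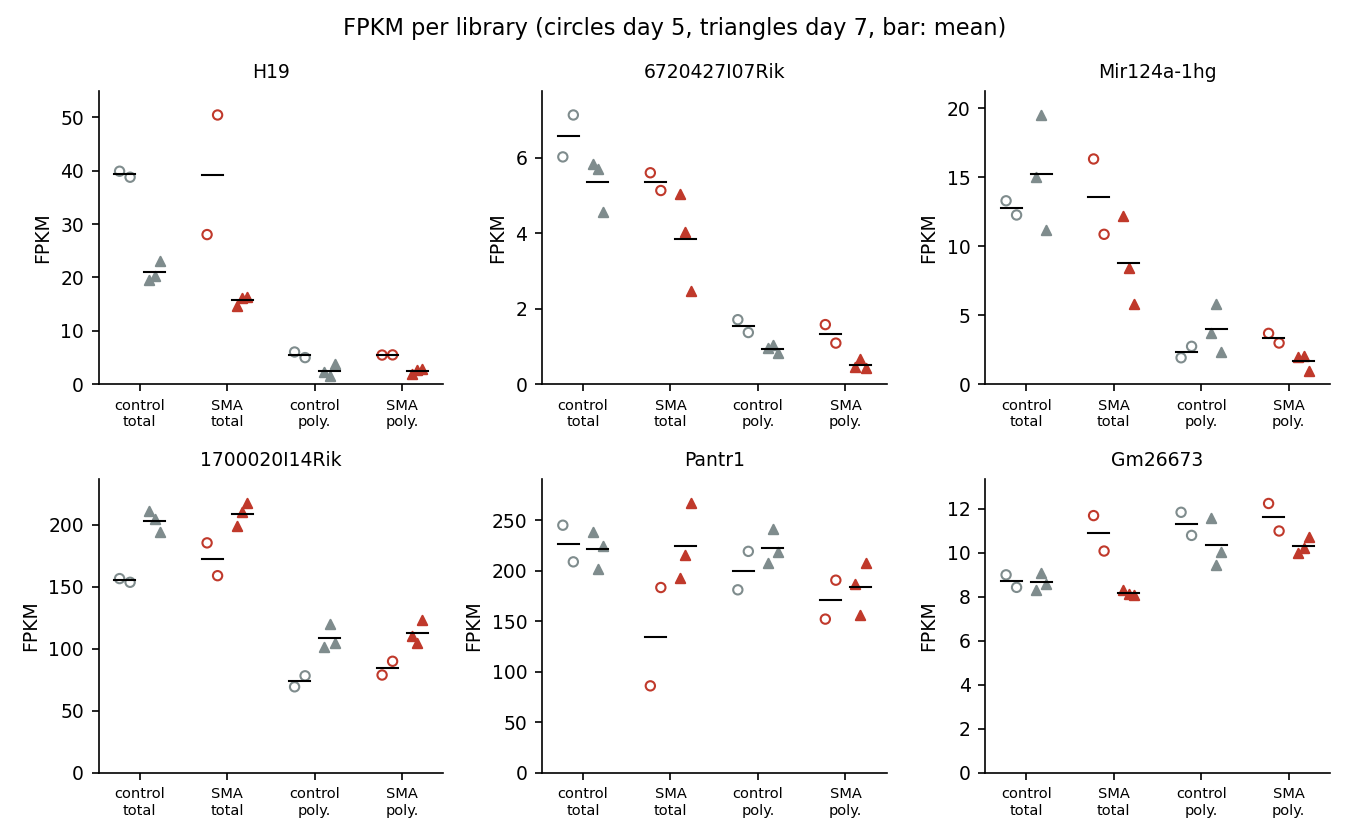
FPKM of 6 lincRNAs in each of the 20 libraries, by genotype and fraction, with day 5 as circles, day 7 as triangles and the group mean as a bar. H19, 6720427I07Rik, Mir124a-1hg and 1700020I14Rik lie lower in polysomal than in total libraries, Pantr1 overlaps between fractions, and Gm26673 lies higher in polysomal RNA at day 7.

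MicroRNA precursor transcripts stood low as a group. A microRNA gene lies within the span and on the strand of 15 members, with 58 mature microRNA sequences of RefSeq inside them. Of the 15 hosts, 12 were lower in polysomal RNA at day 7 by limma at an adjusted p under 0.05, beside 12% of all tested genes. Higher were 0 of them, at an adjusted or an unadjusted p under 0.05, beside 18% and 25.5% of all tested genes. Their median difference was -0.55, beside -0.35 for the 118 other members without coding overlap, of which 60 were lower. In each of the 10 mice the median host lay below the median of those other members, from -0.91 to -0.58 against -0.51 to -0.26. Mature microRNAs are not measured by libraries of this kind.

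H19, an imprinted transcript that holds miR-675, was lower by -2.84 (SE 0.18, adjusted p = 6.21e-06). Total RNA of day 7 of control brains held 19.52, 20.24 and 23.06 FPKM of H19 and that of SMA brains 14.69, 16.19 and 16.35 FPKM, and polysomal RNA 2.23, 1.63 and 3.74 against 2, 2.71 and 2.86 FPKM. At day 5, total RNA held 39.88 and 38.76 FPKM of H19 in controls against 28.02 and 50.41 FPKM in SMA mice. Every H19 value in polysomal RNA lay far below the total values of its stage, at day 5 with 6.04 and 4.99 against 5.47 and 5.5 FPKM. The 2 mature strands of miR-675 lie at chr7:142577078-142577133 of GRCm38 on the minus strand and are shown with bases 2 to 8, the seed that pairs with targets, in capitals, from RefSeq on GRCm38.p6.
miR-675-5p: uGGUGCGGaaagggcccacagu
miR-675-3p: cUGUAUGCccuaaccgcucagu

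6720427I07Rik, the host of 3 let-7 microRNAs, was lower by -2.51 (SE 0.17, adjusted p = 1.08e-05). Its total RNA of day 7 gave 5.83, 5.7 and 4.57 FPKM in controls against 5.04, 4.03 and 2.46 FPKM in SMA mice, and its polysomal RNA 0.96, 1.04 and 0.82 against 0.47, 0.66 and 0.44 FPKM. The fractions were far apart, and in polysomal RNA the genotypes did not overlap either. The let-7 family is known for restraining proliferation and for timing differentiation. The 3 mature 5p strands, shown because they are from a single host and have 1 seed in capitals, lie on the minus strand between chr13:48536078-48536099 for let-7d, chr13:48537889-48537910 for let-7f and chr13:48538239-48538260 for let-7a.
let-7a-5p: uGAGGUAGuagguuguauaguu
let-7f-5p: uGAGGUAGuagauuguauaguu
let-7d-5p: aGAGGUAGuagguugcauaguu

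The 2 hosts of miR-124, an abundant microRNA of neurons, both fell between total and polysomal RNA, but by different amounts. Mir124a-1hg was lower by -2.16 (SE 0.29, adjusted p = 7.22e-04), with 14.99, 19.52 and 11.19 FPKM in controls against 12.22, 8.43 and 5.79 FPKM in SMA total RNA of day 7, and 3.73, 5.85 and 2.37 against 1.95, 2.04 and 0.97 FPKM in polysomal RNA. Mir124-2hg was lower by -0.70 (SE 0.04, adjusted p = 5.51e-06). It had 39.14, 34.54 and 33.31 FPKM in controls against 37.54, 37.61 and 38.59 FPKM in SMA total RNA, and 20.89, 22.47 and 21.55 against 23.71, 22.12 and 24.45 FPKM in polysomal RNA. The host with the lower level had the lower polysomal difference.

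The 3 hosts of miR-9, which is known for its role in neural progenitors, also differed among themselves. Gm3764, with Mir9-1, was lower by -0.55 (SE 0.09, adjusted p = 0.00166) and C130071C03Rik, with Mir9-2, by -0.44 (SE 0.06, adjusted p = 8.91e-04), whereas AI854517, with Mir9-3, stood at -0.04 (SE 0.06, adjusted p = 0.676). AI854517 had 16.89, 16.2 and 17.77 FPKM in controls against 18.32, 18.07 and 17.16 FPKM in SMA total RNA of day 7, and 16.62, 13.77 and 14.99 against 20.96, 19.47 and 16.59 FPKM in polysomal RNA, so its fractions overlapped. The mature 5p sequence, with its seed in capitals, is identical at chr3:88215613-88215635, chr13:83738821-83738843 and chr7:79505279-79505301, all on the plus strand.
miR-9-5p: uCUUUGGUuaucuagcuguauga

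Mirg, the transcript of an imprinted cluster with 14 microRNA hairpins on chromosome 12, was lower by -2.05 (SE 0.23, adjusted p = 2.67e-04). It had 9.21, 8.36 and 5.91 FPKM in controls against 6.19, 5.38 and 4.74 FPKM in SMA total RNA of day 7, and 2.39, 2.64 and 0.99 against 1.38, 1.22 and 0.97 FPKM in polysomal RNA. Its mature sequences seldom repeat a seed. miR-453 at chr12:109735669-109735692 and miR-496a-5p at chr12:109739132-109739152 share 1 (in capitals), and miR-134-5p at chr12:109734145-109734166, a microRNA studied in dendrites, has a different one.
miR-453: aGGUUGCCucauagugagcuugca
miR-496a-5p: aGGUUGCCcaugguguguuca
miR-134-5p: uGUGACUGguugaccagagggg

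Of the remaining hosts, E130102H24Rik, with miR-101a, was lower by -1.40 and Rmst, with miR-135a-2 and miR-1251, by -0.89. E530001K10Rik (miR-129-2 and miR-670) was lower by -0.54, 2900076A07Rik (miR-1839) by -0.47 and 5330434G04Rik (miR-325) by -0.28. Ftx (miR-374b and miR-421) at -0.35 and Gm20754 at -0.17 did not pass the test (limma adjusted p = 0.114 and 0.433). 2900076A07Rik did not pass without any 1 mouse other than SMA mouse 3 (-0.53 to -0.39), nor 5330434G04Rik without any other than control mouse 3 (-0.29 to -0.24). Small nucleolar RNA genes lie on the same strand inside 3 members, of which 2 were lower, beside 12% of all tested genes. Epb4.1l4aos was lower by -1.73 (SE 0.17, limma adjusted p = 1.21e-04) and Gm26945 by -0.99 (limma adjusted p = 0.0217), while 6530403H02Rik stood at -0.43 and did not pass (limma adjusted p = 0.160).

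Of the lincRNAs with described functions, several fell and some did not pass the test. Of all members 43.8% were lower at day 7, beside 12% of all tested genes. Counts in groups of 2 to 4 members are therefore not a result about the groups. Among the 3 members tied to X inactivation, Jpx, an activator of Xist, was lower in polysomal RNA by -1.09 (SE 0.26, adjusted p = 0.0131). Xist stood at -1.15 with an SE of 1.52 (limma adjusted p = 0.610). It was at 6.69 FPKM or more in total RNA of some mice and under 0.2 FPKM in the others. Where it was high at day 7, in control mice 1 and 2 and SMA mouse 3, its differences were -1.82, -2.33 and -2.24. SMA mouse 1 of day 5, at 13.42 FPKM in total RNA, stood at -2.47. In the other mice of day 7 the differences ran from -1.27 to 0.74, at levels where the pseudocount weighs heavily. Of 2 members of imprinted loci, H19 and Mirg, both fell. Of 4 members beside developmental transcription factor genes, 2 fell, Rmst at -0.89 and Lhx1os at -0.91 (adjusted p = 9.02e-04 and 0.0495). Lhx1os did not pass without control mouse 1 or 2 or any SMA mouse (-0.96 to -0.88), nor with a pseudocount of 0.01, without a filter, with quantile normalization or with eBayes without a trend (adjusted p from 0.0502 to 0.0588), and Jpx not without control mouse 3, SMA mouse 1 or SMA mouse 3 (-0.95, -1.10 and -1.02). The other 2 of these, Pantr1 at -0.14 and Tunar, a lincRNA of neural differentiation, at -0.12, did not pass (adjusted p = 0.315 and 0.185). Pvt1, beside Myc, was lower by -0.83 (SE 0.09, adjusted p = 2.81e-04).

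Members that overlap coding exons lay nearer to protein-coding genes than the others did. The 132 members without such an overlap had a median polysomal minus total difference of -0.36, and 71 of them (53.8%) were lower and 2 higher at day 7. The 67 members with an overlap had a median of -0.02, and 17 of them (25.4%) were lower and 2 higher. With protein-coding genes of the same level subtracted, the medians were -0.41 without and -0.05 with an overlap at day 7, and -0.35 and 0.05 at day 5. The median member without overlap lay below the median member with overlap in all 10 mice, from -0.55 to -0.30 against -0.09 to 0.04. This split was chosen after the values were seen, and was described without a test.

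Of the overlapping members, 61 have a coding partner that was tested, on the opposite strand in 58, and the partner had the higher level in 49. In 34 of the 61 pairs, the polysomal minus total difference of the member lay within 0.2 of that of its partner. The share for unrelated pairs was not computed. The quartiles were -0.25 and 0.10 for all overlapping members and -0.06 and 0.19 for protein-coding genes, so this count alone does not show likeness to the partner. Across the 61 pairs, which are not independent replicates, the 2 differences had a Spearman correlation of 0.485, and 0.611 in the 31 pairs where the overlap covers 50% or more of the member. Gm26722 and Rbbp4 had 0.24 and 0.47, and Gm17275 and the histone gene H3f3a 0.16 and 0.44. Gm26694 was among the lowest overlapping members at -1.65, and its partner Metrn, a secreted factor of glial differentiation, stood at -1.39. 1600020E01Rik differed from its partner, at -1.06 against 0.09 for Pcbp1, an RNA-binding protein gene, but only 1.73% of its exon length overlaps. Of the 31 pairs with an overlap of 50% or more, 19 lay within 0.2 of each other. Others did not, such as Gm28592 and Phlda1 (0.03 and -0.56, overlap 98.1%) and Gm26819 and Med10 (0.01 and 0.30, overlap 81.3%).

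Members that a later annotation calls protein-coding had a smaller median difference. The 16 members that Gencode M21 or RefSeq types as protein-coding had a median of -0.20, with 5 lower and 1 higher. The 11 of them without coding overlap also had a median of -0.20, with 4 lower and 1 higher. The 121 members that are neither protein-coding in these annotations nor overlap coding exons had a median of -0.40, with 67 lower and 1 higher. Of all tested genes, 12% were lower and 18% higher. Other features of the transcripts moved little with the difference. Over 199 members the Spearman correlation with the polysomal minus total difference was 0.04 for the length of the longest transcript, -0.07 for its number of exons, -0.01 for its GC content and 0.10 for the longest reading frame. The 7 lincRNAs left out by name had a median of -1.83, from -2.41 for Malat1 to -0.46 for Meg3.

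The day 5 mice, which the day 7 comparison did not use, gave a median member of -0.29 beside 0.05 for protein-coding genes. By limma at an adjusted p under 0.05, 47 members (22.6%) were lower and 3 (1.44%) higher in polysomal RNA, beside 7.75% and 5.64% of all tested genes. Of the 91 members lower at day 7, 90 had a negative difference at day 5. Lower at both days were 43 members, which is 91.5% of those lower at day 5 and 47.3% of those lower at day 7. A difference below -1 at both days was found for 21 members, while 1.31% of the protein-coding genes lay below -1 at day 5. The 3 higher members were Gm17275 at 0.58, Gm26722 at 0.52 and Gm26882 at 0.33, all of them overlapping coding exons, and Gm26722 was higher at both days. At an unadjusted p under 0.05, 13 members were higher and 92 lower, beside 18.7% and 17.2% of all tested genes.

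Of the 8 lowest members of day 7, 6 were also the lowest at day 5. Gm26870 stood at -4.77, Gm28872 at -3.48, H19 at -2.79, BC051077 at -2.21, Mir124a-1hg at -2.20 and 6720427I07Rik at -1.99, all passing the test. The other 2 of the 8, Mirg at -1.39 and Gm4419 at -1.17, also passed but lay above several other members. Of the 15 microRNA hosts, 9 were lower and the median was -0.79. Without control mouse 1, control mouse 2, SMA mouse 1 or SMA mouse 2 of day 5, the members lower numbered 3, 4, 13 and 22, and those higher 0 in each case. Without control mouse 1 or control mouse 2, H19, 6720427I07Rik, BC051077 and Mir124a-1hg did not pass, with differences from -2.84 to -1.85. Gm28872 did not pass without control mouse 1, SMA mouse 1 or SMA mouse 2 (-3.70 to -3.07), nor Gm26870 without SMA mouse 1 (-4.76). With the replicate number as a block 18 were lower and 0 higher at day 5, beside 1.55% and 0.0721% of all tested genes under that fit. At day 7, 99 were lower and 7 higher with the block, beside 13.9% and 23.7%.

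SMA and control brains were compared at day 7 in each fraction. In total RNA, 19 members (9.13%) were higher and 9 (4.33%) lower in SMA mice by limma at an unadjusted p under 0.05, the threshold of the study, beside 4.84% and 4.7% of all tested genes. In polysomal RNA 19 members were higher and 11 lower, beside 5.35% and 5.38%. After Benjamini-Hochberg adjustment 0 members passed in either fraction, with smallest adjusted p of 0.199 and 0.141, beside 0.111% of all tested genes in total and 0.0918% in polysomal RNA. The median member differed by 0.01 in total and by 0.03 in polysomal RNA. In both fractions 11 members (5.29%) were higher and 1 was lower, beside 1.84% and 1.62% of all tested genes, and 0 members passed in both with opposite signs. Total and polysomal libraries of a replicate number may come from the same brain, so the fractions may not be independent. The labels give no sex. At day 7 Xist was at 6.69 FPKM or more in total RNA of control mice 1 and 2 and SMA mouse 3 only, so it was not balanced between genotypes. Whether sex bears on the members' differences was not tested.

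**Figure D4:**
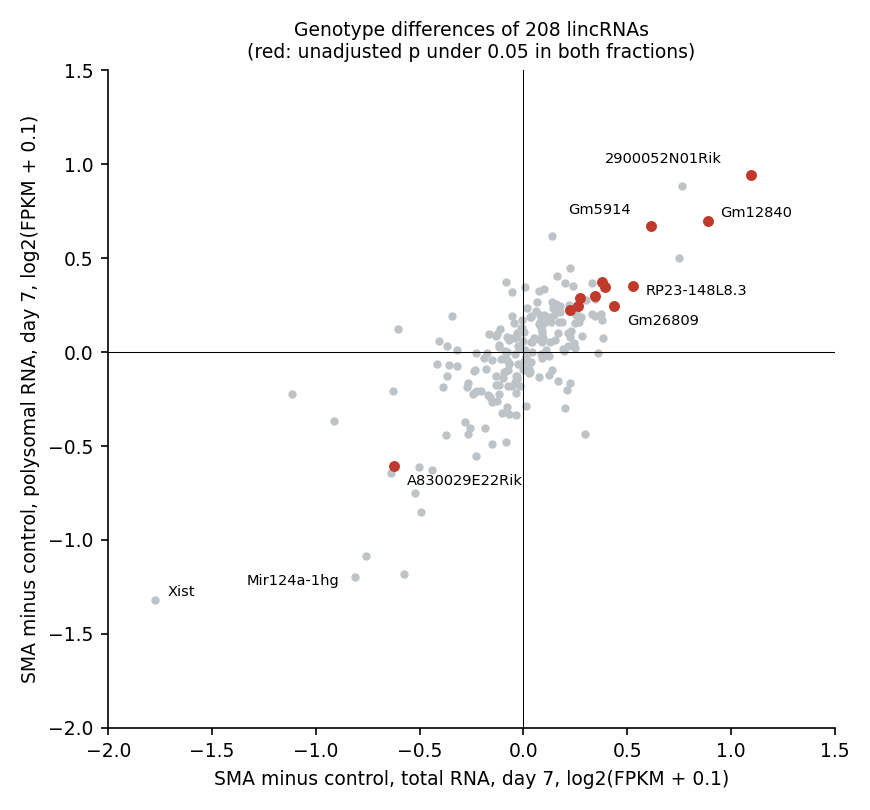
SMA minus control difference of the 208 lincRNAs at day 7 on the log2(FPKM + 0.1) scale, in total RNA (x axis) and in polysomal RNA (y axis). The 12 red points passed an unadjusted p under 0.05 in both fractions, 11 of them higher and A830029E22Rik lower in SMA mice.

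The largest increase in both fractions was that of 2900052N01Rik, at 1.10 (SE 0.32, unadjusted p = 0.0174) in total and 0.94 (SE 0.26, unadjusted p = 0.0149) in polysomal RNA. It had 2.8, 2.63 and 1.51 FPKM in controls against 6.43, 3.66 and 4.96 FPKM in SMA total RNA, and 1.67, 1.54 and 1.2 against 4, 2.09 and 2.87 FPKM in polysomal RNA. All SMA values lay above all control values in both fractions, and at day 5 the total libraries were likewise apart, with 1.17 and 1.19 FPKM in controls against 1.72 and 2.07 FPKM in SMA mice. Without SMA mouse 1 its difference in total RNA was 0.90 (unadjusted p = 0.0513).

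Gm12840, a transcript of 627 bases at chr4:117700188-117700923, was higher by 0.89 (SE 0.19, unadjusted p = 0.00456) in total RNA and by 0.70 (SE 0.08, unadjusted p = 3.39e-04) in polysomal RNA. Total RNA of day 7 held 11.24, 8.94 and 8.65 FPKM in controls against 20.38, 19.57 and 14 FPKM in SMA mice, and polysomal RNA 4.95, 5.49 and 4.99 against 8.01, 9.05 and 8.17 FPKM. At day 5, total RNA held 9.21 and 8.53 FPKM in controls against 16.28 and 24.72 FPKM in SMA mice, and polysomal RNA 3.1 and 4.14 against 6.26 and 13.31 FPKM. The genotypes did not overlap in any of the 4 comparisons, in all 10 mice together. Gm12840 lies 17914 bases from Dmap1, which differed by -0.07 in total and by 0.05 in polysomal RNA (unadjusted p = 0.388 and 0.662).

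A pair of overlapping members on chromosome 6 moved the same way. RP23-148L8.3 (chr6:18845910-18848207, minus strand) was higher in SMA mice by 0.53 (unadjusted p = 0.00804) in total and by 0.35 (unadjusted p = 2.24e-04) in polysomal RNA. It had 31.02, 27.86 and 23.24 FPKM in controls against 37.85, 43.36 and 36.81 FPKM in SMA total RNA, and 22.84, 24.3 and 24.35 against 30.43, 30.9 and 29.88 FPKM in polysomal RNA. Gm26809 (chr6:18844220-18847360, plus strand) was higher by 0.44 (unadjusted p = 0.00121) and by 0.24 (unadjusted p = 0.0239). It had 12.64, 11.72 and 11.76 FPKM in controls against 17.36, 16.54 and 15.16 FPKM in SMA total RNA, and 9.96, 10.33 and 8.82 against 11.89, 11.45 and 11.13 FPKM in polysomal RNA. The genotypes of both were apart in both fractions at day 7, and again at day 5, where the differences were 0.83 and 0.78 for RP23-148L8.3 and 0.76 and 0.73 for Gm26809. The 2 count as 1 locus, since reads of the shared 1451 bases may not have been told apart by strand. The nearest coding gene, Lsm8, encodes a subunit of the ring on the U6 small nuclear RNA. It lies 371 and 1218 bases away and differed by 0.07 in total and -0.03 in polysomal RNA. In polysomal RNA the test of Gm26809 was lost without SMA mouse 1 or SMA mouse 2 (0.22 and 0.25, unadjusted p = 0.0776 and 0.0638).

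Of the other members higher in both fractions, 2310015A10Rik differed by 0.39 in total and 0.35 in polysomal RNA, with 2.31, 2.61 and 2.54 FPKM in controls against 3.27, 3.53 and 3.09 FPKM in SMA total RNA. Gm5914, which lies over exons of Ctcf on the opposite strand, differed by 0.62 and 0.67, while Ctcf differed by 0.01 in total RNA. Mkln1os differed by 0.35 and 0.30, 2810029C07Rik by 0.38 and 0.37, 9430098F02Rik by 0.27 and 0.29, Gm15706 by 0.26 and 0.24 and Gm2061 by 0.22 and 0.23. Several of these rested on single mice. In total RNA 2810029C07Rik and Gm5914 did not pass without control mouse 2, control mouse 3, SMA mouse 1 or SMA mouse 2 (0.31 to 0.36 and 0.50 to 0.56). In polysomal RNA 2810029C07Rik was lost without control mouse 3 or SMA mouse 1 (0.30 in both), Gm5914 without control mouse 3 or SMA mouse 3 (0.56 and 0.65) and 9430098F02Rik without SMA mouse 2 or 3 (0.29 and 0.28). Mkln1os was lost there without control mouse 3, SMA mouse 1 or SMA mouse 3 (0.29, 0.29 and 0.24). Gm15706 was lost in total RNA without control mouse 1 or 2 or SMA mouse 2 or 3 (0.21 to 0.25), and in polysomal RNA without control mouse 1 or 2 or SMA mouse 1 or 3 (0.22 to 0.23). Gm2061 was lost in total RNA without any 1 mouse but control mouse 1, and in polysomal RNA without any but SMA mouse 2 (0.18 to 0.25). At day 5, 8 of the 11 members were above 0 in total RNA and 10 in polysomal RNA. The SMA values lay above the control values for 5 of the 11 in total and 8 in polysomal RNA, beside 25.1% and 23.9% of all tested genes in 2 mice against 2. A single gene cannot go below an exact two-sided permutation p of 0.333 there.

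A830029E22Rik was lower in both fractions, by -0.62 (unadjusted p = 0.0261) in total and -0.61 (unadjusted p = 0.0398) in polysomal RNA. It had 4.95, 4.55 and 3.13 FPKM in controls against 3.01, 2.44 and 2.53 FPKM in SMA total RNA, and 4.84, 5.37 and 3.06 against 2.83, 2.77 and 2.78 FPKM in polysomal RNA. Control mouse 3 lay close to the SMA mice in both fractions. The test was lost in total RNA without control mouse 1 or 2 or SMA mouse 2 or 3 (-0.50, -0.56, -0.57 and -0.59), and in polysomal RNA without control mouse 1 or 2 or any SMA mouse (-0.52, -0.45, -0.62, -0.60 and -0.60).

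**Figure D5:**
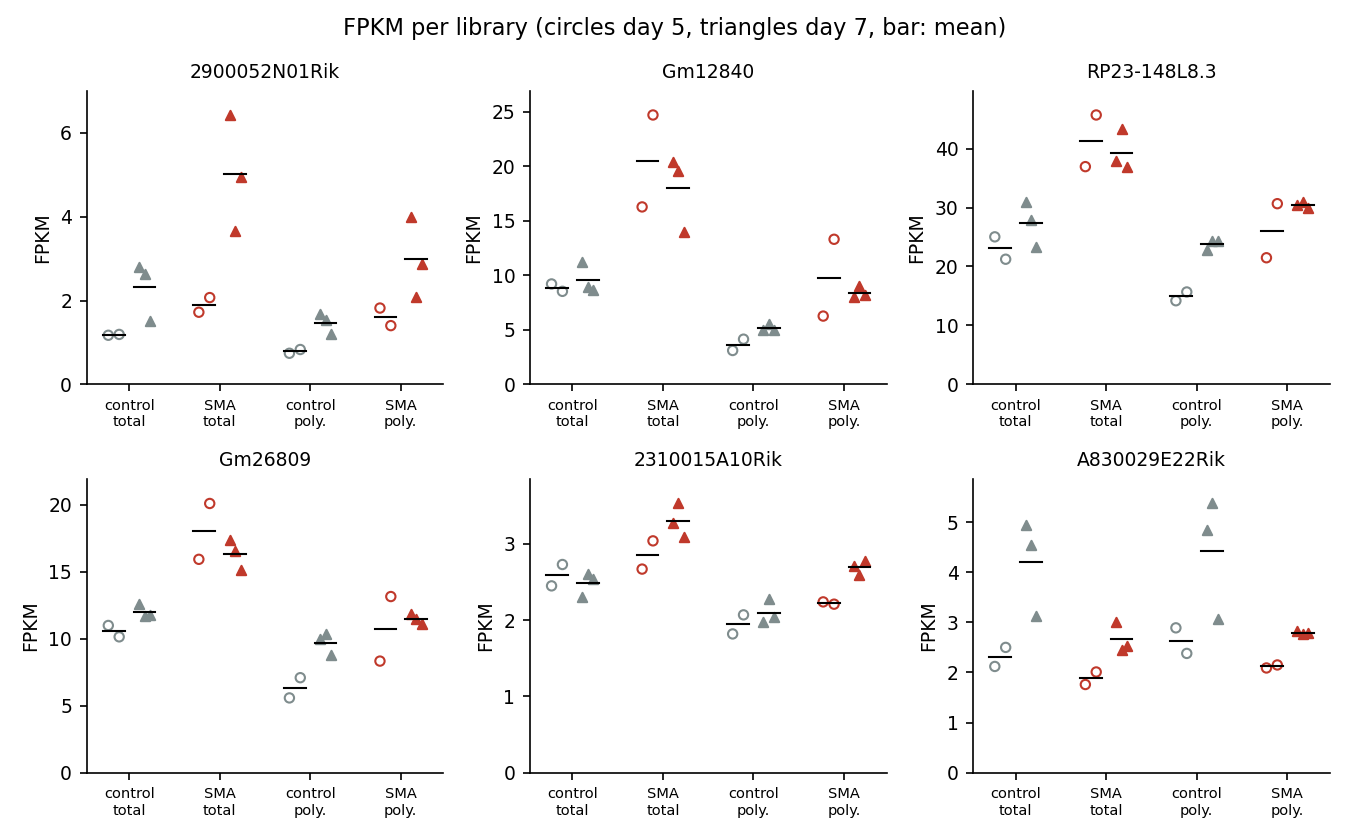
FPKM of 6 lincRNAs in each of the 20 libraries, with day 5 as circles, day 7 as triangles and the group mean as a bar. A830029E22Rik lies lower in SMA than in control libraries of day 7 in both fractions, and the other panels lie higher.

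Other members passed in 1 fraction. In total RNA, BC051077 was lower in SMA mice by -0.42 (unadjusted p = 0.00249), H19 by -0.41 (unadjusted p = 0.00396) and Gm26909, opposite the polymerase gene Polb, by -0.91 (unadjusted p = 0.0162). The polysomal differences of the 3 were -0.06, 0.06 and -0.37 and did not pass. In polysomal RNA, 2310040G24Rik was lower by -0.48 (unadjusted p = 8.54e-04), the let-7 host 6720427I07Rik by -0.75 (unadjusted p = 0.00462) and Gm1043 by -0.43 (unadjusted p = 0.00687). The miR-124 host Mir124a-1hg differed by -0.81 in total (unadjusted p = 0.0611) and by -1.19 in polysomal RNA (unadjusted p = 0.0378). Its total RNA difference passed without a filter, with the stricter filter and with the replicate block (unadjusted p = 0.0383, 0.0243 and 0.0312), and without control mouse 3 or SMA mouse 1 (-1.01 and -1.08). It did not pass in polysomal RNA without control mouse 1 or 2 or SMA mouse 1 or 3 (-1.34 to -0.87), and 6720427I07Rik not with quantile normalization (-0.81, unadjusted p = 0.0545). Whether a member that passed in 1 fraction differed between fractions is tested by the interaction of genotype and fraction.

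Leaving out single mice moved the counts of members. In total RNA the members higher fell to 10 without control mouse 2, and those lower to 4 without control mouse 1 and to 5 without control mouse 2, SMA mouse 2 or SMA mouse 3. Those lower numbered 18 without control mouse 3 and 15 without SMA mouse 1. With the replicate number as a block 15 were higher and 15 lower in total RNA, beside 4.38% and 4.22% of all tested genes. In polysomal RNA the members higher fell to 10 without SMA mouse 1, and those lower numbered 5 without control mouse 2 and 21 without control mouse 3. Marker genes of endothelial cells were lower in SMA mice, 4 of 4 in both fractions (medians -0.65 and -0.74), with sums of 37.3 to 49.5 FPKM in controls against 21.9 to 25.4 FPKM in SMA total RNA of day 7. Of 3 tested choroid plexus markers 2 were higher (medians 0.69 and 0.54), with sums of 376 to 406 FPKM against 638 to 815 FPKM. Their part in the members' differences was not tested.

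The SMA effect on polysomal minus total, the interaction that stands for a change in translation efficiency, passed an unadjusted p under 0.05 for 2 members. This is 1 member in each direction, beside 1.09% higher and 0.977% lower of all tested genes, and 0 members passed after adjustment (smallest adjusted p = 1), beside 0.0394% of tested genes. Gm16702 was higher by 0.73 (SE 0.23, unadjusted p = 0.0117). It had 9.98, 8.29 and 6.98 FPKM in controls against 6.88, 5.18 and 4.53 FPKM in SMA total RNA, and 1.95, 1.77 and 2.11 against 2.1, 2.07 and 2.19 FPKM in polysomal RNA. BC002059 was lower by -0.41 (unadjusted p = 0.0461). Gm16702 did not pass without control mouse 2 or SMA mouse 3 (0.67 and 0.57), nor BC002059 without control mouse 2 or any 1 SMA mouse (-0.44 to -0.27). With the replicate number as a block, 6 members were higher and 9 lower, beside 2.05% and 2.28% of all tested genes under that fit. Without single mice 0 to 3 were higher and 0 to 5 lower.

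Between day 5 and day 7, 55 members (26.4%) rose and 23 (11.1%) fell in total RNA by limma at an adjusted p under 0.05, beside 20% and 21.8% of all tested genes. The median member differed by 0.09, and the median tested gene by -0.04. Stage and any processing batch cannot be told apart. Of the 55 members that rose, 25 overlap coding exons. These are 37.3% of the overlapping members, beside 21.2% of the members without overlap and 21.9% of the protein-coding genes under the same limits. Gm28872 rose by 1.52 (adjusted p = 0.00128), Gm26527, opposite Arsb, by 1.36, Gm26658 by 1.26, Gm4419 by 1.25 and Gm10419 by 1.23. Rnu11, on the strand opposite Gm28872, differed by 0.24 (SE 0.67, limma adjusted p = 0.80). Reads of these 2 may not have been told apart, so the level of Gm28872 is uncertain. Gm26527 had 6.49 and 5.84 FPKM in controls against 5.85 and 5.92 FPKM in SMA total RNA at day 5, and 18.67, 16.86 and 13.53 against 14.96, 15.01 and 14.79 FPKM at day 7. Its values did not overlap between stages, and Arsb rose by 0.88 in the same comparison.

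H19, whose level falls after birth in most tissues, fell by 1.08 (SE 0.15, adjusted p = 0.00174). Gm26917 differed by -1.18 (adjusted p = 0.0250), Gm26953 by -1.06, Gm26870 by -0.99 and Gm26765 by -0.92. Gm26917 had 57.55 and 29.16 FPKM in controls against 74.51 and 44.88 FPKM in SMA total RNA at day 5, and 26.86, 28.36 and 16.33 against 32.82, 16.19 and 14.37 FPKM at day 7, with overlap between stages. Without control mouse 1 or SMA mouse 1 of day 5 or SMA mouse 2 or 3 of day 7, Gm26917 did not pass (-1.11 to -0.94). Gm26870 did not pass without control mouse 2 or SMA mouse 1 of day 5 (-0.89 and -0.86). Without control mouse 1 or 2 of day 5 the members that fell numbered 13 and 14.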

How the data were processed

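Gene-level FPKM were deposited by the authors for 45700 genes and 20 brain libraries, 1 value per gene and library. Per the labels and the study's methods, stranded total RNA libraries were sequenced as 100 bp reads, aligned to GRCm38.p4 with TopHat2 2.0.14 and the Gencode M6 annotation, and assembled and scaled with Cufflinks 2.2.1 at default settings. The default library type of these programs is unstranded. No counts were at hand, so the reads behind a value are unknown and no interval for counting error was given. The FPKM of a gene depend on its annotated length and on all other RNA of the library.

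Groups and replicate numbers were taken from the labels, and all columns matched 1 sample. Values were analysed as log2(FPKM + 0.1) with R 4.3.3 and limma 3.58.1 (lmFit, and eBayes with a trend) over the 15247 genes with a mean of 1 FPKM or more. The fraction and stage comparisons were called at a Benjamini-Hochberg adjusted p under 0.05, averaged over genotypes with 4 group means. The genotype comparisons and the interaction were called at an unadjusted p under 0.05, after the study, with adjusted values beside them. limma stands in for CuffDiff and Xtail, which need alignments or counts. The fit was tested on simulated data with known changes. The labels give total and polysomal libraries a shared number but do not state a shared lysate. Same-numbered libraries deviated together over the members at day 7 (correlations of 0.402 to 0.707) and at day 5 (0.119 in control and 0.533 in SMA mice), but hardly over all tested genes (-0.0391 to 0.109). In control mice 1 and 2 of day 7 the correlations over the members were 0.449 and 0.402. With another number they reached 0.363 and 0.289, so the number sets these 2 mice little apart. In the other mice of day 7 the highest with another number ran from -0.554 to 0.223. The number was treated as a pairing on the members' values, and the block is an alternative. In fits of a single fraction, p-values measure the spread between these mice. The fraction and interaction fits without the block take libraries of a shared number as independent. Their p-values measure the spread between libraries.

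Members of the set and the gene lists were chosen with earlier results of these data known. Genes named are the 10 of highest mean, the 8 highest and 8 lowest polysomal minus total differences, up to 6 members a direction that passed and did not overlap in both fractions, the 3 of smallest p a direction and fraction, up to 3 a direction of smallest p for the interaction, the 5 largest stage changes a direction, and the members of the role lists (X inactivation, imprinted loci, microRNA hosts, lincRNAs beside developmental transcription factor genes, broadly expressed lincRNAs). Other names, among them coding partners, Rnu11, the remaining microRNA hosts and the other members that passed in both fractions, were chosen after their values were seen. Features, spans and overlaps came from Gencode M21, and microRNA sequences from RefSeq on GRCm38.p6. Alternatives were other pseudocounts, filters and scalings, a correction for transcript length, the replicate block, the other threshold, other level bands and leaving out each mouse.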

Additional observations from a re-analysis of the deposited data

Results flagged for a closer look

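The SMA effect differed between total and polysomal RNA of day 7 for 2 lincRNAs, by the interaction of genotype and fraction at an unadjusted p under 0.05. For Gm16702 the interaction was 0.726 (limma unadjusted p = 0.0117), with an SMA minus control difference of -0.60 in total and 0.12 in polysomal RNA. Without control mouse 2 or SMA mouse 3 it was 0.667 and 0.573 (limma unadjusted p = 0.0506 and 0.0532). For BC002059 the interaction was -0.414 (limma unadjusted p = 0.0461), with 0.21 in total and -0.20 in polysomal RNA, and it did not pass without control mouse 2 (-0.273) or without any 1 of the 3 SMA mice (-0.394 to -0.437). With the replicate number as a block both passed (limma unadjusted p = 0.0296 and 0.031), but then 6 members were higher and 9 lower in place of 1 and 1, so the count depends on the pairing. Neither passed the adjustment without the block, and the unadjusted threshold was passed by 2.07% of all tested genes.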

How the results depend on the processing

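The median polysomal minus total difference at day 7 was -0.194 with a pseudocount of 1, -0.27 with libraries rescaled to equal medians and -0.173 with quantile normalization, which gave -0.158 at day 5 and a stage median of 0.172. Relative to protein-coding genes of the same level, the median was -0.411 at day 7 and -0.353 at day 5 for members without coding overlap, and -0.0517 and 0.0512 for members with coding overlap, a split added after seeing the data. This last value is above 0 where that of all members, -0.276, is below it. At the other call threshold 9 members were higher at day 7, and 13 higher and 92 lower at day 5. At day 5, 1 was higher without a filter, which moved the median of all genes by -0.113, and 6 higher and 74 lower with the stricter filter. After adjustment the genotype comparison of total RNA had 0 higher and 0 lower, that of polysomal RNA 0 and 0, and the interaction 0 and 0. A pseudocount of 1 gave the interaction 2 higher.

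With the replicate block, 7 members were higher at day 7, 0 higher and 18 lower at day 5, and the interaction had 6 higher and 9 lower. Between genotypes the mice share only a number (correlations of -0.533 to -0.0551 over the members), and the block gave 15 lower in total RNA. Of the named lincRNAs, A830029E22Rik lost its polysomal call under the block (limma unadjusted p = 0.0559) and Gm26870 its stage call (limma adjusted p = 0.0784). At day 5 Gm28872, BC051077, Gm26722, Gm17275 and Gm26882 lost theirs, and in both fractions Gm2061 and Gm15706, and Mkln1os in polysomal RNA. The block and its pairing gave the polysomal difference of Hist2h2bb and Gm26723 a call.

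Leaving out 1 mouse at a time gave ranges. At day 7, 2 to 5 members were higher and 69 to 81 lower in polysomal RNA, with medians of -0.254 to -0.224. At day 5, 0 were higher and 3 to 22 lower. The genotype comparison gave 10 to 20 higher and 4 to 18 lower in total RNA, and 10 to 22 higher and 5 to 21 lower in polysomal RNA. The interaction gave 0 to 3 higher and 0 to 5 lower, with medians of -0.0273 to 0.00176, and the stage comparison 13 to 26 lower. Of the alternatives for named lincRNAs, 1328 kept direction and side of the threshold, 151 lost and 15 gained the call, and 8 changed sign. The 8 are SMA minus control values that did not pass. With 1 mouse left out at a time, 2310040G24Rik ranged from -0.255 to 0.117 in total RNA (0.0518 without control mouse 1 and 0.117 without SMA mouse 2). In polysomal RNA BC051077 ranged from -0.226 to 0.134 (0.134 without control mouse 1), H19 from -0.205 to 0.37 (-0.205 without control mouse 2, -0.0369 without SMA mouse 3) and Gm28872 from -0.275 to 0.304 (-0.275, -0.121 and -0.152 without control mouse 2, SMA mouse 2 and SMA mouse 3). Why values moved was not tested. With FPKM and no counts, depth limits are unknown, and 2 or 3 mice a group leave the genotype calls dependent on single mice.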
